A study of Mus musculus with 4 samples.

Results

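The guanylate-binding proteins (GBPs) and the immunity-related GTPases (IRGs) are 2 families of GTPases whose genes macrophages switch on in answer to interferon. 10 of these genes were taken by symbol from a deposited table of 14435 genes, 4 of the GBP family (Gbp2, Gbp3, Gbp5, Gbp7) and 6 of the IRG family (Irgm1, Irgm2, Igtp, Ifi47, Iigp1, Tgtp1), and each of the 10 symbols matched a row. RNA was sequenced from RAW264.7 cells, a mouse line with macrophage character, in 4 libraries that had all been exposed to E. coli lipopolysaccharide (LPS) for 12 hours. 2 libraries carried a nonspecific shRNA (Control 1 and Control 2) and 2 an shRNA that targets Mettl3 (shMettl3 1 and shMettl3 2), whose product is the enzyme placing N6-methyladenosine on mRNA. Because no library was left without LPS, the comparison is of the shRNAs under LPS, and induction by LPS was not measured. One field of shMettl3 2 names METTL4, while its title and the series design name METTL3.

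GBPs are dynamin-related GTPases that assemble on pathogen-containing vacuoles and on cytosolic bacteria, where they help to expose LPS to caspase-11. IRGs are smaller GTPases of the same defence. The regulatory IRGs, Irgm1, Irgm2 and Igtp (also called Irgm3), sit on host membranes and hold back the effector IRGs, among them Iigp1 (Irga6), Tgtp1 (Irgb6) and Ifi47 (Irgd), which attack the vacuole. Interferon acts on both families through promoter motifs, gamma-activated sequences (GAS) and interferon-stimulated response elements (ISRE), and in macrophages LPS feeds into this route through TLR4, TRIF and secreted interferon beta.

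The promoters show what the genes have in common in sequence. RefSeq promoter entries on GRCm38.p6 were matched for 9 of the 10 genes, all but Iigp1, and the 250 bases before each transcription start were searched on both strands for an ISRE core, made of 2 copies of GAAA with any 2 bases between them, and for a GAS, TTCNNNGAA. The ISRE core was present before 8 of the 9 genes, against 2.98% of 32851 promoter windows of that length. A GAS was present before 5 of the 9, Gbp5, Gbp7, Igtp, Irgm2 and Tgtp1, against 7.02% of windows, and these 5 held both motifs, against 0.332%. A match describes the letters and does not show binding. In the regulatory IRG genes Igtp and Irgm2 and in the effector IRG gene Tgtp1, the GAS and the ISRE core stood 2 bases apart. The spacing was the same in Tgtp2 and Gm12185, family genes outside the 10. Of 21 such family genes listed, 8 had promoter entries, 4 with the ISRE core and 3 with a GAS. The stretches that hold the motifs nearest the start are given here, ending at the base before the start, with both motifs in capitals; in Gbp3 and Irgm1 the capitals are 2 overlapping ISRE cores.
Gbp2, chr3:142620589-142620662, plus strand: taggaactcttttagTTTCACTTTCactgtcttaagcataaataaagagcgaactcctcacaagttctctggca
Gbp3, chr3:142559984-142560043, plus strand: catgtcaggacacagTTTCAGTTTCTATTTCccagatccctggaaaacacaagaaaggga
Gbp7, chr3:142530215-142530335, plus strand: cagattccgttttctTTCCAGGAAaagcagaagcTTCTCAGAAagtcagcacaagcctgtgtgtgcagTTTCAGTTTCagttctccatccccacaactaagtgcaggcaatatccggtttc
Irgm1, chr11:48871421-48871480, minus strand: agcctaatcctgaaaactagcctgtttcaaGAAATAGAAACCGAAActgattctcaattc
Igtp, chr11:58199496-58199555, plus strand: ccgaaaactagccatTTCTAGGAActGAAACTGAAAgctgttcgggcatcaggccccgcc
Irgm2, chr11:58214887-58214976, plus strand: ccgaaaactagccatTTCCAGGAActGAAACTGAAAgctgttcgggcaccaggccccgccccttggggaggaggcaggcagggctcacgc
Tgtp1, chr11:48992247-48992349, minus strand: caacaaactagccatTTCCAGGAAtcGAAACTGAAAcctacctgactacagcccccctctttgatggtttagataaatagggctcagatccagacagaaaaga
Ifi47, chr11:49076512-49076586, plus strand: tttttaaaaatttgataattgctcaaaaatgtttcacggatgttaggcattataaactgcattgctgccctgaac
Gbp5 (not printed) had its ISRE core farther out, beginning 165 bases before the start, and the nearer of its 2 GAS matches began 52 bases before it. Gbp3 has a second listed start, whose window held neither motif. The bases after the listed start of Irgm2 were not matched in its GENCODE transcripts, so its distances are less certain. Ifi47, shown for contrast, had neither motif in its 250 bases. These coordinates are those of the RefSeq table, while the submitters' processing notes name the build mm9, so they are not coordinates of the deposited counts.

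The genes also lie together in the genome. In the order of protein-coding genes on GRCm38, Gbp5, Gbp7, Gbp3, Gbp2b and Gbp2 follow one another without an unrelated gene between them. Tgtp1 and Ifi47 lie in a run of 5 family genes with 9930111J21Rik1, 9930111J21Rik2 and Tgtp2, Igtp and Irgm2 follow Gm12250, and Iigp1 lies beside F830016B08Rik. Irgm1 opens a run with Gm5431 and Gm12185.

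Near-identical copies limit some of the counts. Of the 50-base words in the longest coding transcript of each gene (GENCODE M21), the length of the reads, 91.4% of those of Tgtp1 also occur in another gene, 89.4% in its neighbour Tgtp2. The share was 12.3% for Igtp, all of it with Irgm2, 12.8% for Gbp7 and at most 7.36% for the other 7 genes. The value of Tgtp1 is therefore uncertain, and it is given below also with Tgtp2 added.

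The libraries held between 16342313 and 17193639 estimated counts. Mettl3 had 514 and 496 counts in Control 1 and 2 and 194 and 195 in shMettl3 1 and 2 (log2 fold change -1.42, SE 0.10). Markers of macrophages other than Mertk, which had at most 1 count in a library, were present, and 6 of 8 tested fell while 0 rose (edgeR, and 0 higher at an unadjusted p below 0.05). Over all tested genes 21.4% rose and 22.3% fell. Spi1 (log2 fold change -0.06) and Fcgr1 (0.83, higher in both shMettl3 libraries) were not called. TPM is a unit scaled by transcript length and library. Summed over the macrophage markers it was 17412 and 16844 in Control 1 and 2 and 11712 and 11653 in shMettl3 1 and 2. Lyz2 was the largest part, with 10293 and 9350 TPM in Control 1 and 2 and 5955 and 5779 in shMettl3 1 and 2. Of the other cell types, 4 of 6 fibroblast and 2 of 7 lymphocyte markers were in the deposited table. The summed TPM of those present was at most 1.1 for fibroblast and 0.61 for lymphocyte markers in any library. The first of these was in shMettl3 1, where Col1a1, Col1a2 and Col3a1 had 17, 15 and 15 counts against at most 1 in each other library. The 3 of 6 dendritic markers present summed to 9.85 and 12.4 in Control 1 and 2 and to 3.15 and 2.79 in shMettl3 1 and 2. Most of this was Itgax, which fell (log2 fold change -2.36, SE 0.18). The part of these differences in the results below was not tested. In bulk RNA, fewer cells that express a gene and less RNA per cell cannot be told apart.

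Every one of the 10 genes had a higher mean in the shMettl3 libraries, but only the 2 least abundant, Iigp1 and Tgtp1, passed the test. Calls rest on the edgeR quasi-likelihood test, with Benjamini-Hochberg adjusted values under 0.05 across the 11035 genes tested. 2 of 10 genes rose and 0 fell (2 and 0 at an unadjusted p below 0.05), where 21.4% of all tested genes rose and 22.3% fell (43.7% in either direction), so the number of calls does not set these genes apart from the rest of the table. For 9 of the 10, both shMettl3 libraries lay above both Control libraries in CPM (counts scaled by library size and TMM factor). This held for 37.1% of tested genes in that direction. The median log2 fold change was 1.01, against 0.01 over all tested genes. Both called genes passed the filter on low counts only through the shMettl3 libraries, so their inclusion favoured a difference. The other 8 passed in both Control libraries as well.

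Iigp1 (Entrez gene 60440), an effector IRG that coats parasite vacuoles, was barely expressed in the Control libraries. It had 17 and 8 counts there, or 0.53 and 0.26 TPM, against 98 and 67 counts, or 3.46 and 2.29 TPM, in shMettl3 1 and 2. The groups did not overlap, and Iigp1 rose 6.37-fold (log2 fold change 2.67, SE 0.36, edgeR adjusted p = 2.13e-04). Leaving out a library moved the fold between 4.68 without Control 2 and 9.80 without Control 1, and it was called each time.

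Tgtp1 (Entrez gene 21822), an effector IRG known from T cells and macrophages, was listed at 3.52 and 3.87 estimated counts in Control 1 and 2 and at 15.6 and 24.5 in shMettl3 1 and 2. In TPM these were 0.12 and 0.13 against 0.58 and 0.88. It rose 4.74-fold on these few counts (log2 fold change 2.24, SE 0.47, edgeR adjusted p = 0.00265). With the counts of Tgtp2 added, an alternative chosen after seeing the data, the log2 fold change was 1.61 (edgeR adjusted p = 0.0189).

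The 4 GBP genes lay between 10.6 and 63.0 TPM in the Control libraries and between 28.1 and 141 TPM in the shMettl3 libraries. Gbp3 (Entrez gene 55932) had 57.0 and 26.0 TPM in Control 1 and 2 and 141 and 109 TPM in shMettl3 1 and 2. The lower shMettl3 library was thus well above the higher Control library, yet the Control libraries themselves differed 2.14-fold in CPM. Its 2.75-fold difference (log2 fold change 1.46, SE 0.52) was not called (edgeR adjusted p = 0.154), and it was 2.01-fold and not called without Control 2. Without Control 1 it was 4.28-fold and called (edgeR adjusted p = 0.0233).

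Gbp2 (Entrez gene 14469), a prenylated GBP that associates with pathogen vacuoles, had 63.0 and 28.7 TPM in Control 1 and 2 and 139.7 and 99.7 TPM in shMettl3 1 and 2. The groups again did not overlap. The difference was 2.38-fold (log2 fold change 1.25, SE 0.54, edgeR adjusted p = 0.2045), not called. It was 3.69-fold without Control 1 and 1.74-fold without Control 2, and not called in either.

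Gbp5 (Entrez gene 229898), linked to assembly of the NLRP3 inflammasome, had 23.3 and 11.6 TPM against 46.5 and 33.6 TPM (2.09-fold, log2 fold change 1.06, SE 0.47). Gbp7 (Entrez gene 229900) had 19.5 and 10.6 TPM against 36.2 and 28.1 TPM (1.94-fold, log2 fold change 0.96, SE 0.40). Both had separate groups and neither was called by edgeR (adjusted p = 0.213 and 0.193). Without Control 1, Gbp7 was called (edgeR adjusted p = 0.0255) and Gbp5 was not.

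**Figure D1:**
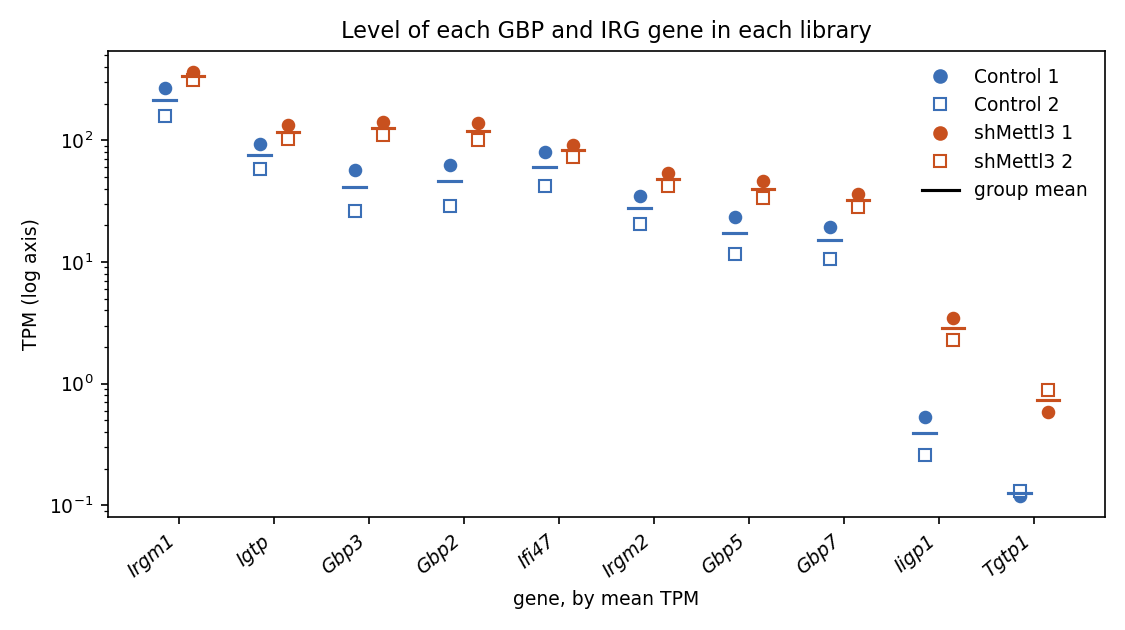
Level of the 10 genes in each library, in TPM on a log axis, with genes ordered by mean level; filled circles are replicate 1, open squares replicate 2, and bars the group means (n = 2). Control 2 is the lowest library for every gene but Tgtp1, and only for Ifi47 does a shMettl3 library fall below Control 1.

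Irgm1 (Entrez gene 15944), the regulatory IRG best known for its role in control of mycobacteria, was the most abundant of the 10 in every library. It had 270.3 and 157 TPM in Control 1 and 2 and 364 and 314 TPM in shMettl3 1 and 2, or 214 ± 79.9 against 339 ± 35.4 TPM (SD, n = 2 each). The difference was 1.44-fold (log2 fold change 0.53, SE 0.34) and not called (edgeR adjusted p = 0.328). Without Control 1 it was 1.91-fold and called (edgeR adjusted p = 4.52e-06), and without Control 2 it was 1.15-fold and not called (0.0887).

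The other regulatory IRG genes showed like values. Irgm2 (Entrez gene 54396) had 34.7 and 20.4 TPM in Control 1 and 2 and 54.3 and 41.7 TPM in shMettl3 1 and 2 (1.58-fold, log2 fold change 0.66, SE 0.36). Igtp (Entrez gene 16145) had 93.2 and 58.1 TPM against 133 and 103 TPM (1.42-fold, log2 fold change 0.50, SE 0.32). In CPM the groups of Igtp were separated by little, with 113.7 in Control 1 and 115 in shMettl3 2. Neither gene was called by edgeR (adjusted p = 0.273 and 0.330).

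Ifi47 (Entrez gene 15953) was the 1 gene whose groups overlapped. It had 79.5 and 41.8 TPM in Control 1 and 2 and 91.7 and 73.4 TPM in shMettl3 1 and 2, so shMettl3 2 lay below Control 1. The difference was 1.24-fold (log2 fold change 0.31, SE 0.42, edgeR adjusted p = 0.626). Its direction turned without Control 2 (log2 fold change -0.07), and without Control 1 it was called (0.80, edgeR adjusted p = 0.0145).

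**Figure D2:**
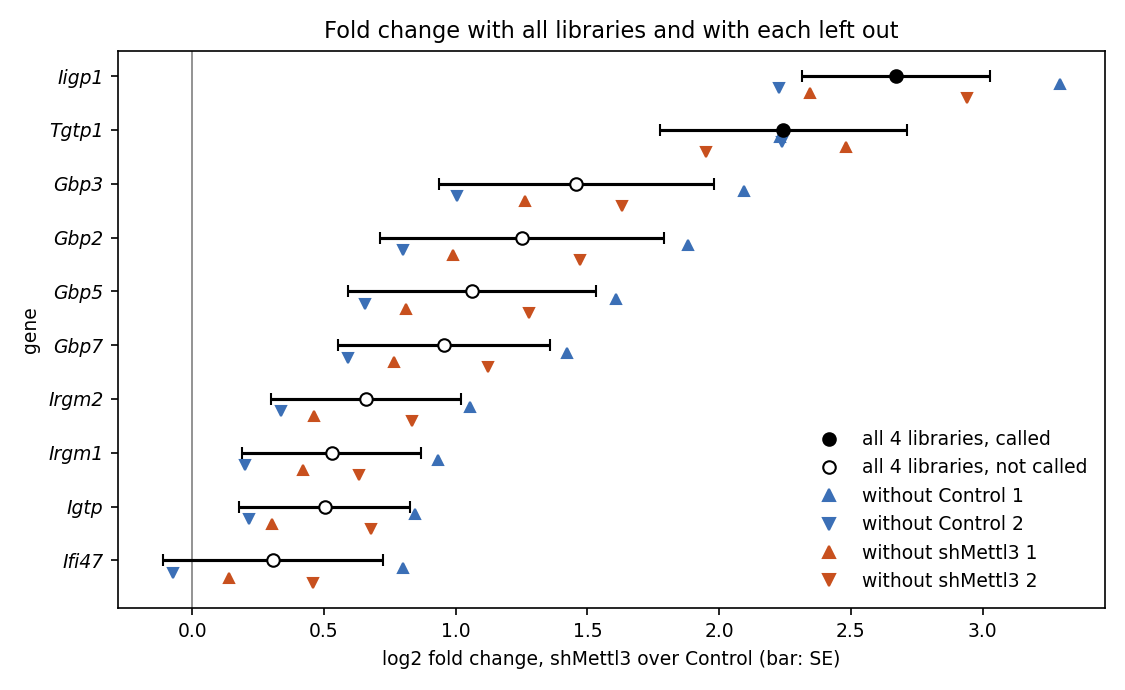
Log2 fold change of each gene, shMettl3 over Control, from edgeR with all 4 libraries (circle, with its SE; filled where called) and with each library left out (triangles). Removal of Control 1 moves 9 genes to the right and removal of Control 2 moves the same 9 to the left. Tgtp1, which had few counts in the Control libraries, barely moves with either.

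The spread between the Control libraries was large for these genes. Tgtp1 was the exception, on only 3.52 and 3.87 estimated counts in Control 1 and 2. Its near-identical neighbour Tgtp2 had 54.5 and 30.1. In the other 9 of the 10, Control 1 was above Control 2, by between 1.56-fold and 2.14-fold in CPM. Only 1.33% of all tested genes had a Control 1 to Control 2 ratio as high as the lowest of these 9 (a log2 ratio of 0.63 with 0.5 added to each CPM), and the median over all tested genes was -0.001. The shMettl3 libraries differed less, by between 1.16-fold and 1.51-fold for the same 9 genes, with shMettl3 1 the higher. Other fits of the same counts called more of the 10. DESeq2 called 3 and limma-voom 8. The same edgeR test without robust fitting called 7, on the same log2 fold changes, so the calls depended on that option. In these fits 0 were lower.

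**Figure D3:**
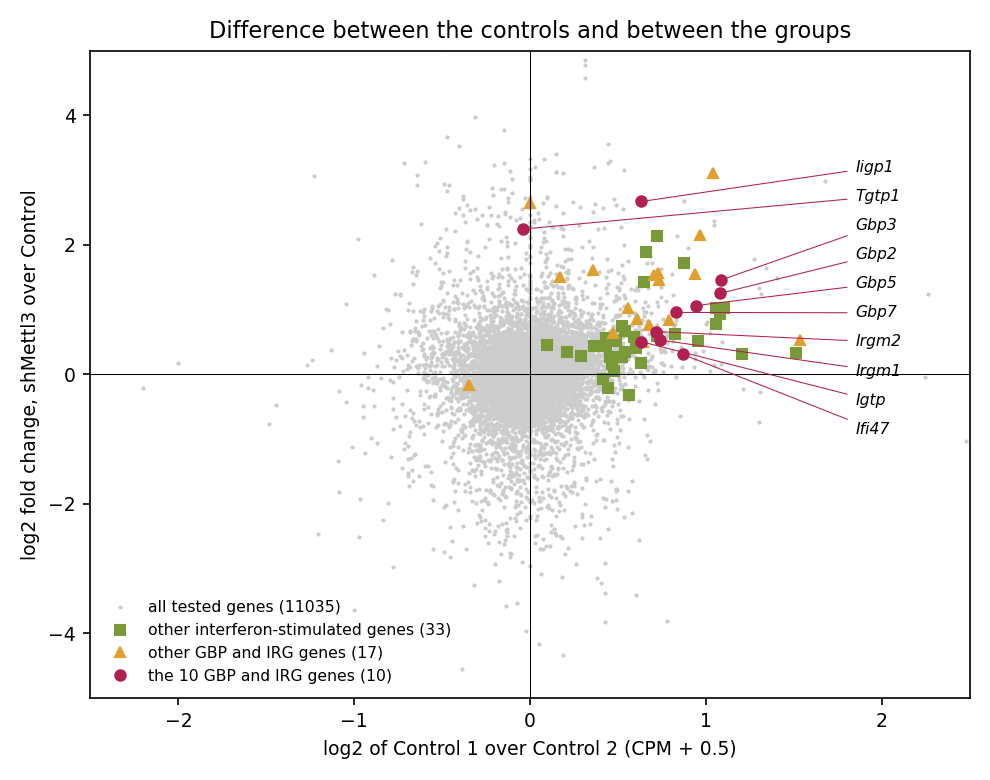
For each tested gene, the log2 ratio of the 2 Control libraries (horizontal) against the log2 fold change of shMettl3 over Control from edgeR (vertical); 10 of 11035 genes lie outside the axes. 9 of the 10 GBP and IRG genes lie at 0.63 or more on the horizontal axis, whereas the median of all tested genes is -0.001.

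A shift of the same fold in 2 genes cancels in a ratio between them. Control 1 over Control 2 was 2.12-fold in the summed TPM of the GBP genes and 1.72-fold in that of the IRG genes. The shift here was thus not of the same fold, and its part in the ratios was not tested. The summed TPM of the 4 GBP genes over that of the 6 IRG genes was 0.340 and 0.277 in Control 1 and 2 and 0.562 and 0.506 in shMettl3 1 and 2. The ratio was thus higher in both shMettl3 libraries, 1.73-fold between the means, and it differed 1.23-fold between the Control libraries. For 2 libraries against 2, an exact two-sided permutation test cannot give a p below 0.333, so no p is given. Relative to Irgm1, Gbp3 stood at 0.211 and 0.165 in Control 1 and 2 and at 0.388 and 0.349 in shMettl3 1 and 2. Gbp2 stood at 0.233 and 0.182 against 0.384 and 0.318. Gbp5, Gbp7, Irgm2, Iigp1 and Tgtp1 were likewise higher relative to Irgm1 in both shMettl3 libraries, by between 1.09-fold (Irgm2) and 4.65-fold (Iigp1) between the means. Igtp overlapped between the groups on this scale. Ifi47 was lower, with 0.294 and 0.266 in Control 1 and 2 against 0.252 and 0.234 in shMettl3 1 and 2. How many of all tested genes separate the groups relative to Irgm1 was not computed. Iigp1 and Tgtp1, with the largest differences on this scale, passed the filter on low counts only through the shMettl3 libraries.

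**Figure D4:**
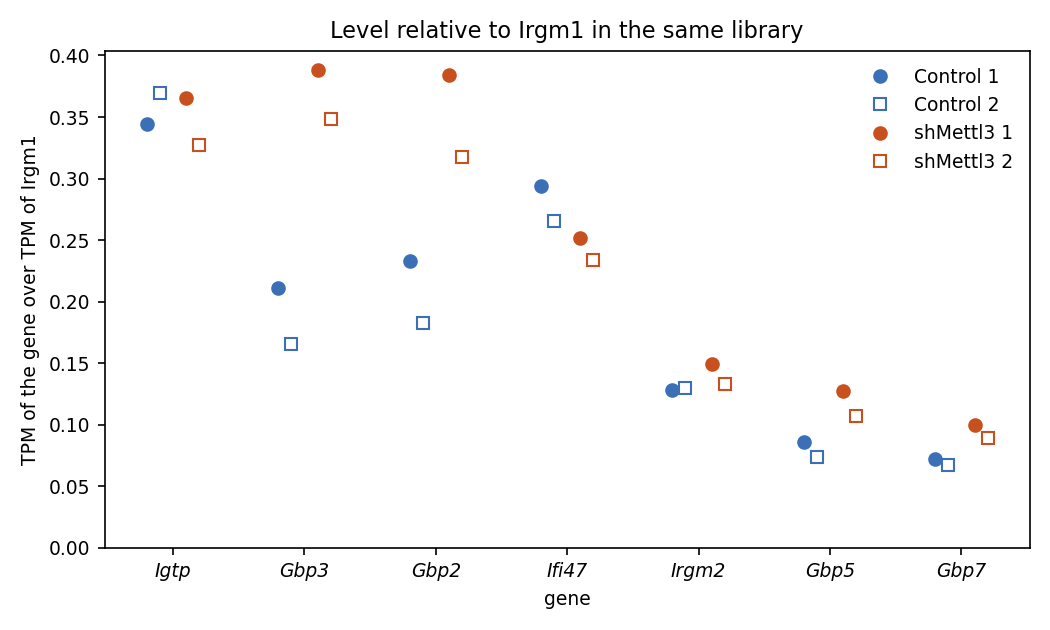
TPM of 7 genes divided by the TPM of Irgm1 in the same library, with the 4 libraries side by side; Iigp1 and Tgtp1, whose ratios are below 0.01, are left out. Gbp3 and Gbp2 separate the groups most, Igtp overlaps, and Ifi47 is lower in the shMettl3 libraries.

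The order of the genes by level changed with the group. In the Control libraries Irgm1 was followed by Igtp, Ifi47, Gbp2, Gbp3, Irgm2, Gbp5, Gbp7, Iigp1 and Tgtp1, in the same order in both libraries. In the shMettl3 libraries Gbp3 and Gbp2, with means of 125 and 119.7 TPM, stood level with Igtp at 118 TPM and ahead of Ifi47 at 82.5 TPM. The ranges of neighbours from Igtp to Gbp7 overlapped in the Control libraries, where only Irgm1, Iigp1 and Tgtp1 stood clear. In the shMettl3 libraries the ranges of Igtp and Ifi47, and of Ifi47 and Irgm2, did not overlap either.

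The GBP and IRG genes outside these 10 included more that passed the test. Of 21 symbols listed, 17 were in the table. 9 rose and 0 fell (11 and 0 at an unadjusted p below 0.05, and 0 lower by DESeq2 and limma-voom). Over all tested genes 21.4% rose and 22.3% fell. In edgeR without robust fitting 13 of these 17 rose, and 7 of the 10 above. The median log2 fold change of the 17 was 1.46, and 13 of them passed the filter in both Control libraries. Of those that rose, Gbp4, Gm4951 and Gm12185 passed it only through the shMettl3 libraries. Gbp1 and Mpa2l are older names of Gbp2b and Gbp6. With a mean of at least 5 CPM required, the number that rose was 5.

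Of the second GBP cluster, where Gbp8, Gbp9, Gbp4, Gbp10 and Gbp6 follow one another, all 5 rose. Gbp4 had 0.48 and 0.16 TPM in Control 1 and 2 and 3.67 and 2.44 TPM in shMettl3 1 and 2 (log2 fold change 3.11, SE 0.41), though it passed the filter only through the latter. Gbp9 had 4.64 and 2.30 TPM against 18.4 and 17.4 TPM (2.15, SE 0.35). Gbp8 (1.61), Gbp10 (1.57) and Gbp6 (1.46) rose by less. The counts of Gbp4, Gbp6, Gbp9 and Gbp10 were not all whole, which happens where RSEM splits a read over several genes.

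Gbp2b, in the first cluster with Gbp2 and Gbp3, had 44.1 and 22.2 TPM in Control 1 and 2 and 123 and 91.1 TPM in shMettl3 1 and 2 (log2 fold change 1.55, SE 0.47) and was not called. Among IRG genes Gm4951 (log2 fold change 2.65), Gm12185 (2.83-fold) and 9930111J21Rik1 (1.03) rose, the first 2 of them passing the filter only through the shMettl3 libraries, as did the giant GTPase gene Gvin1 (0.86) with both groups above the filter. Tgtp2 (1.53), Gm4070 (0.84), Gm5431 (0.75), F830016B08Rik (0.64), 9930111J21Rik2 (0.52) and Gm12250 (0.50) were not called. Irgq, an IRG relative that interferon does not induce, had 5.03 and 6.23 TPM in Control 1 and 2 and 5.09 and 6.07 TPM in shMettl3 1 and 2 (-0.16), not called, and was the 1 family gene called lower without Control 1.

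Dynamin-like large GTPases outside the family had 3 of 9 tested genes rise and 1 fall, with a median log2 fold change of 0.08. Over all tested genes 21.4% rose and 22.3% fell. Atl1, an atlastin that shapes the endoplasmic reticulum, rose 2.83-fold from few counts, passing the filter only through the shMettl3 libraries, and Atl2 (log2 fold change 0.28) and Dnm2 (0.26) rose slightly, while Dnm1 fell by 1.84. The number that rose was 1 in DESeq2, 0 without shMettl3 replicate 1, 2 without Control 2 and 1 without shMettl3 replicate 2. Control 1 and Control 2 were close in this list (median log2 ratio 0.12, against 0.78 for the 10 GBP and IRG genes).

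Genes of interferon signalling did not share one direction, and the balance of their calls changed with the scaling, the unit and the test. 2 of 22 tested genes rose and 6 fell (21.4% and 22.3% over all tested genes), with a median log2 fold change of -0.07. Library size alone gave 4 that rose and 3 that fell, whereas RLE size factors, another scaling, gave 2 and 6. DESeq2 gave 3 and 3, and limma-voom and edgeR without robust fitting each 5 and 6. limma gave 6 and 4 on FPKM plus 0.1, 5 and 3 on FPKM plus 1, and 6 and 2 on TPM plus 0.1 and on TPM plus 1. Irf1, a transcription factor of the interferon gamma response, had 17.3 and 14.3 TPM in Control 1 and 2 and 27.1 and 22.4 TPM in shMettl3 1 and 2 (log2 fold change 0.51, SE 0.12, called), and the kinase gene Tyk2 rose (0.63). The receptor genes Ifngr1 (-0.33), Ifngr2 (-0.29) and Ifnar2 (-0.19) fell, and Ifnar1 (-0.09) was not called. The inhibitor genes Socs1 and Socs3 fell by 0.67 and 0.48 and the factor gene Irf5 by 0.55.

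Irf8, a transcription factor gene of the macrophage lineage, was not called (log2 fold change 0.01, SE 0.08). Ifnb1, the gene of interferon beta, had 0 and 1 counts in Control 1 and 2 and 11 and 5 in shMettl3 1 and 2 and was below the filter. In the signalling list 9 rose without Control 1 and 5 without Control 2, where 9 fell. It was 1 without shMettl3 replicate 1, and without shMettl3 replicate 2 the number that fell was 2.

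Interferon-stimulated genes that are neither GBP nor IRG were also higher in Control 1. All 33 tested were higher in Control 1 than in Control 2, and all 33 higher in shMettl3 1 than in shMettl3 2, with median log2 ratios of 0.56 and 0.21 (0.78 and 0.37 for the 10 GBP and IRG genes). 6 rose and 0 fell (9 and 0 at an unadjusted p below 0.05), where 21.4% of all tested genes rose and 22.3% fell. The median log2 fold change of these 33 was 0.46. The number that rose was 10 in DESeq2, 17 in edgeR without robust fitting, 19 in limma-voom and 2 with no filter on low counts, with 0 lower in each. limma gave between 10 and 14 on FPKM or TPM. The largest of the called rises were in Cmpk2, a nucleotide kinase gene next to viperin (2.14, SE 0.39), in the chemokine gene Cxcl10 (1.88, SE 0.34) and in Xaf1 (0.57, SE 0.16). The count of 6 became 23 without Control 1, 9 without Control 2, where 3 fell, and 1 without shMettl3 replicate 1.

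The genes whose pattern over the 4 libraries lay closest to that of Irgm1, the most abundant of the 10, were Zbed6, Ddx60, Phf11a, Slfn5 and Kcnab1. Their root mean square difference from Irgm1 in centred log2 CPM was between 0.03 and 0.04, out of 11034 genes compared. Ddx60, an interferon-induced helicase gene, had 24.0 and 13.4 CPM in Control 1 and 2 and 29.4 and 24.0 CPM in shMettl3 1 and 2.

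A list of inflammasome genes had 6 of 10 tested genes rise and 1 fall, where 21.4% of all tested genes rose and 22.3% fell. Its median log2 fold change was 0.50. Casp4, which encodes caspase-11, the cytosolic LPS sensor, had 72.1 and 55.2 TPM in Control 1 and 2 and 162 and 140.2 TPM in shMettl3 1 and 2 (log2 fold change 1.11, SE 0.13). Casp1 (0.87) and Nek7 (0.57), a kinase that NLRP3 needs, rose as well. Gsdmd, the pore-forming substrate of these caspases, was not called (-0.23, SE 0.10), and Ninj1, which ruptures the dying cell, fell by 1.34. Without Control 1, and also without Control 2, 2 genes fell.

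Of the autophagy and ubiquitin genes that place or mark GBPs and IRGs, 5 of 15 rose and 2 fell, with a median of 0.05. Over all tested genes 21.4% rose and 22.3% fell. Trim21, a ubiquitin ligase gene, rose (log2 fold change 1.06, SE 0.22), as did Atg16l1 (0.33) and Gabarap (0.25), while the cargo receptor gene Sqstm1 fell by 0.88 and Gabarapl1 by 0.41. The number that rose was 3 in DESeq2, 1 without shMettl3 replicate 1 and 2 without shMettl3 replicate 2. Among 5 genes of prenylation, through which some GBPs gain a lipid anchor, 0 rose (0 higher at an unadjusted p below 0.05) and 1 fell, Rce1, whose protease trims proteins after the lipid is attached (log2 fold change -0.34). The number that fell was 0 in DESeq2, with TPM plus 0.1 or 1 and without shMettl3 replicate 2, and 2 without Control 1.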

How the data were processed

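The 10 genes and all lists were chosen with earlier results of these data known. The authors deposited, for each gene and library, estimated counts, which are not normalized, FPKM and TPM, per the file headers. HISAT2 2.0.4, Bowtie2 2.2.5, RSEM 1.2.12 and build mm9 are named in the submitters' processing notes, with no role given. The annotation and use of strand: not given in the sources used here. Libraries were primed on poly(A), amplified by template switching and sequenced as single 50-base reads, per the labels' protocols. Reads carry no molecular identifiers. Replicate numbers come from titles, and nothing says that libraries were separate cultures, so the p-values reflect the variation of these 4 libraries, and that variation may be technical.

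Counts were rounded and tested with edgeR 4.0.16 (R 4.3.3) by its robust quasi-likelihood test, with TMM scaling and filterByExpr (minimum count 10, minimum total 15). The test had 2 residual degrees of freedom. The script was tested on simulated data. SE was derived from each log2 fold change and its F statistic. Alternatives used DESeq2 1.42.0, limma 3.58.1 (voom, or log2 of FPKM or TPM plus 0.1 or 1), other scalings and filters, a replicate block and libraries left out. Named were all 10 genes, Mettl3, the family genes, the 3 largest called rises and falls of each list, fixed pathway genes and the 5 genes nearest to the most abundant of the 10. Mertk, Spi1, Fcgr1, Lyz2, Itgax and the collagen genes were named after their values were seen. One of these pathway genes is not reported here.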

Additional observations from a re-analysis of the deposited data

How the results depend on the processing

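Of the 10 GBP and IRG genes, 2 were called. The count was 7 in edgeR without robust fitting, 8 in limma-voom, 4 and 5 with FPKM plus 0.1 and plus 1, and 5 and 6 with TPM plus 0.1 and plus 1. With a mean of at least 5 CPM it was 0, since Iigp1 and Tgtp1 are then not tested. It lay between 2 and 6 with 1 library left out, 6 without Control replicate 1, and 0 were lower in any setting. Iigp1 and Tgtp1 were called in every setting that kept all 4 libraries and tested them, but both passed the filter only through the shMettl3 libraries. Over all settings the log2 fold change lay between 1.14 and 3.29 for Iigp1 and between 0.43 and 2.48 for Tgtp1. Only Ifi47 changed direction, with a log2 fold change of -0.071 without Control replicate 2 and 0.80 without Control replicate 1. Over all tested genes, 2360 rose and 2466 fell. DESeq2 gave 1507 and 1837. The numbers that fell were 1635 and 1539 with FPKM plus 0.1 and plus 1, and 1389 and 1361 with TPM plus 0.1 and plus 1. With 1 library left out, between 1503 and 2543 rose and between 1592 and 2781 fell. The share of calls that rose went from 48.9% to 64.1% with library size alone, 63.3% with FPKM plus 0.1 and 70.1% with TPM plus 0.1. With these, the median over every tested gene, in log2, was 0.11, 0.10 and 0.15, against 0.01.

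Replicate numbers are shared between the groups but no label says that they pair the libraries. Deviations of replicate 1 from the group mean correlated at 0.163 between the groups, across 11035 genes, which are not independent. With a replicate block 9 of the 10 genes were called, and 2548 genes rose and 2568 fell. In it 24 of the other interferon-stimulated genes rose and 1 fell, and 7 of the signalling genes rose and 6 fell. Fits without 1 library take the spread from the group that keeps both, the lone library being assumed to vary alike. Tgtp1 and Iigp1 rest on few counts in the controls, which limits their fold changes.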
